A study of Mus musculus with 6 samples.

Results

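The unfolded protein response genes described here are 34 of the 22558 genes in the deposited gene table. They were taken by name: the 3 sensors of the endoplasmic reticulum (ER), the transcription factors below them, their targets, the ER chaperones and folding enzymes, and the genes of ER-associated degradation. All 34 were found, and 33 had enough fragments to be tested. The samples were 6 libraries of total RNA from whole eyes of mice at postnatal day 21, labelled as strain C57BL/6 (C57BL/6J in the study's design text). Of these, 3 were wild type and 3 were BC027072 -/-, a knockout of the mouse ortholog of the human photoreceptor gene C2orf71 (PCARE), which is mutated in retinitis pigmentosa. How the allele was made, and whether the libraries come from separate animals, is not given in the sources used here. The p-values therefore reflect only how far these libraries differ from each other, and part or, in the wild type, all of that may be technical. The knockout libraries differed in sex-linked RNA, as given below, so they were not all from the same animal. The table numbers its libraries from 0 and the labels from 1, so each library is known by its genotype, and replicates 1 to 3 below follow the order of the table.

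The unfolded protein response is set off when unfolded proteins build up in the ER. The sensors are the kinase PERK (gene Eif2ak3), the kinase and endonuclease IRE1 (Ern1) and the membrane-bound transcription factor ATF6 (Atf6). PERK phosphorylates eIF2alpha, which slows translation and raises ATF4, IRE1 splices the Xbp1 RNA, and ATF6 is cut and moves to the nucleus. Rods make large amounts of rhodopsin in the ER, and misfolded rhodopsin is a known trigger of this response in photoreceptors. RNA levels do not show the phosphorylation of PERK or eIF2alpha or the cutting of ATF6.

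The libraries held 5695530 to 21815950 estimated fragments, with the deepest among the wild type. BC027072 was at 272, 259 and 276 CPM (counts scaled to a common library size, with TMM scaling between libraries) in the wild type and at 0.351, 0.344 and 0.283 CPM in the knockout, so each library matched its label. The 3 wild type libraries and knockout replicate 2 carried Xist (5905 to 17749 fragments), and knockout replicates 1 and 3 carried 11 and 18 Xist fragments and 2047 and 2957 fragments of 4 Y-linked genes. Sex and genotype therefore overlap in part, and the calls of single genes named below are also given with sex as a covariate, a setting in which 1 knockout library has the sex of the wild type. The size of the genotype difference in that setting rests on this library, knockout replicate 2. Rod markers fell in these libraries: the summed level of 12 markers was 31350 to 32004 CPM in the wild type and 19300 to 21668 CPM in the knockout, with 11 called lower and 1 higher. In bulk tissue, fewer cells of a type and less RNA per cell cannot be told apart.

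ATF6 and XBP1 are known to act through a promoter element found in many ER chaperone genes, and the members that hold it are shown here for that reason. The ER stress response element (ERSE) was searched as CCAAT, any 9 bases, then CCACG, on both strands, from 250 bases before to 50 bases after the start site, in sequences from RefSeq on GRCm38.p6. A promoter was at hand for 30 of the 34 genes. Of these 30, 9 (30.0%) held an exact ERSE, 7 of them among the chaperone and folding genes, against 39 of 32851 promoters in the whole table (0.119%). The members were chosen for known roles in this response, so the difference is a description. The lines give each element in capitals with 12 bases on either side, 5′ to 3′ on the strand of the gene, so an element on the opposite strand reads from CGTGG to ATTGG.
Hspa5, chr2:34772013-34772055, + strand: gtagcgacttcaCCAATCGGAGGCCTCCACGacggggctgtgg
Hsp90b1, chr10:86705626-86705668, - strand: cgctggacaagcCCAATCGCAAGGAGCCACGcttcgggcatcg
Hsp90b1, chr10:86705521-86705563, - strand: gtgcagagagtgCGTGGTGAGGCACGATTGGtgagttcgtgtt
Calr, chr8:84847063-84847105, - strand: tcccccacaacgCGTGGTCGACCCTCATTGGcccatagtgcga
Canx, chr11:50325788-50325830, - strand: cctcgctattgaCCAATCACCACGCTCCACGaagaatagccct
Pdia6, chr12:17266479-17266521, + strand: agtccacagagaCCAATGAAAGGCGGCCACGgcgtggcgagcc
Dnajc3, chr14:118937815-118937857, + strand: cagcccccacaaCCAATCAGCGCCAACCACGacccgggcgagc
Creld2, chr15:88819508-88819550, + strand: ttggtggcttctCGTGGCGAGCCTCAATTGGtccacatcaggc
Syvn1, chr19:6046520-6046562, + strand: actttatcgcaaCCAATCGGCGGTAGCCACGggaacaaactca
Derl3, chr10:75893230-75893272, + strand: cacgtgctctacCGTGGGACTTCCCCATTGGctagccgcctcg

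In Hspa5 the element began 65 bases before the start site, and Hsp90b1 held a pair of them on opposite strands. A shorter relative, ERSE-II (ATTGG, any 1 base, CCACG), was found in Dnajb11 and Herpud1, against 12 of all promoters (0.0365%). The element bound by ATF4 with C/EBP factors (CARE, TGATGNAA) was in 4 members (13.3%), against 3.97% of all promoters. Asns, Chac1 and Trib3 are grouped here as targets of PERK and ATF4, and Herpud1 is grouped with the degradation genes. The XBP1-type element UPRE (TGACGTGG) was in Vcp and in 0.676% of all promoters. The matches in Dnajb11 and Trib3 lay 8 and 15 bases into the transcript and are not shown. Capitals again mark the element, and TTGCATCA is CARE read on the other strand.
Herpud1, ERSE-II, chr8:94386365-94386399, + strand: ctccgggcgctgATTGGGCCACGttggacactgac
Asns, CARE, chr6:7693213-7693244, - strand: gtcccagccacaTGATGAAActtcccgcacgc
Chac1, CARE, chr2:119351037-119351068, + strand: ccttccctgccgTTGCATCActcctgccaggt
Herpud1, CARE, chr8:94386305-94386336, + strand: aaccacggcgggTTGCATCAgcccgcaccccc

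Across the 33 tested genes the knockout eye differed little from the wild type. None was called higher and 1, Ppp1r15a, was called lower (edgeR quasi-likelihood test, Benjamini-Hochberg adjusted over all 14919 genes tested, threshold 0.05). That is 3.03% of the members, while 6.24% of all tested genes were called, 2.89% as higher and 3.35% as lower. At an unadjusted p under 0.05 there were 3 members, and the share of all genes under that bound was not computed. DESeq2 also called none of the members higher and 1 lower, and it called 315 of all genes higher and 430 lower. The median log2 ratio of knockout to wild type was −0.0073 over the members and 0.0023 over all genes. A log2 fold change smaller than 0.1 in size was found in 22 members (66.7%) and in 48.2% of all genes. Genes with few fragments scatter more, and most members were well covered. The share among genes of like abundance was not computed, so the narrower spread may not be particular to the members.

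In the fit without sex, the intervals of most members left room only for a small change in the mean level of the whole eye. A larger change confined to some of its cells could lie within them and was not tested. The 32 members that were not called had log2 fold changes from −0.17 to 0.25, 15 above 0 and 17 below. For 31 of the 32 the 95% interval from edgeR lay within a 1.5-fold change in either direction. The exception was Trib3, which few fragments represented. With sex as a covariate the values of the 32 ran from −0.26 (Pdia4) to 0.68 (Trib3), and intervals are not given for that setting. In 13 of the 33 members knockout replicate 3 was the highest of the 6 libraries, and in 18 the lowest library was knockout replicate 1 or 2. The shares of all tested genes with these patterns were not computed, so the patterns may not be particular to the members. The median coefficient of variation within a group was 5.20% in the wild type and 6.62% in the knockout.

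**Figure D1:**
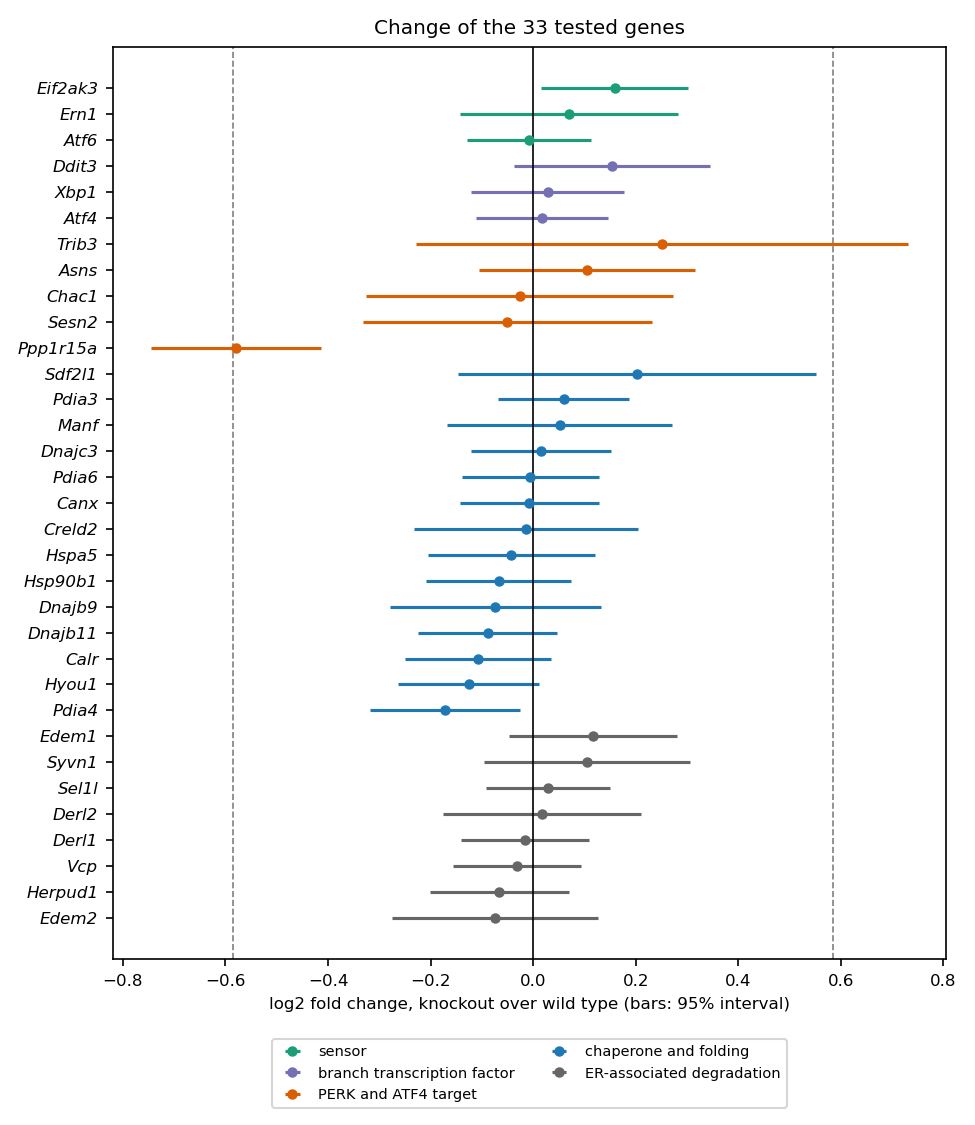
Log2 ratio of knockout to wild type (x axis) for the 33 tested genes, coloured by role, with bars for the 95% interval from edgeR. The dashed lines mark 1.5-fold; Ppp1r15a lies farthest from 0, at −0.58, the intervals of Pdia4 and Eif2ak3 just miss 0, and the interval of Trib3 crosses the right-hand line.

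**Figure D2:**
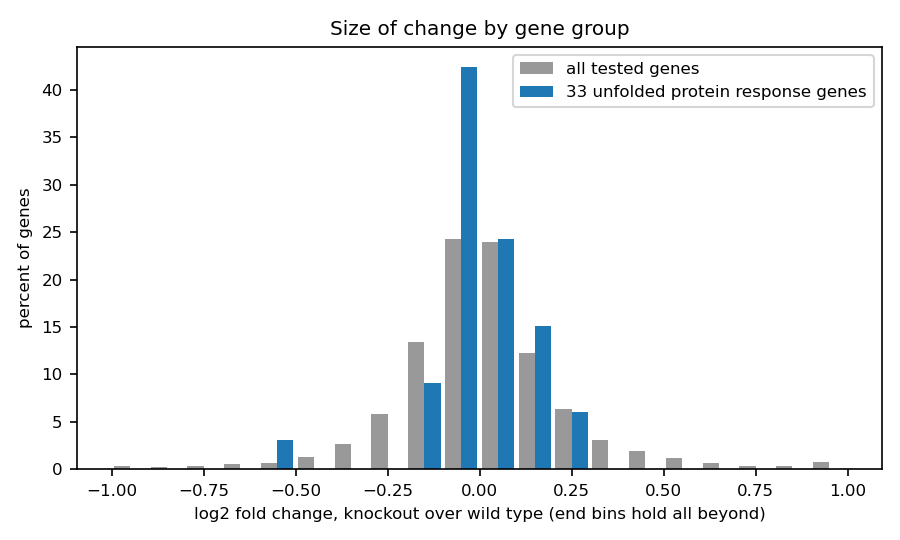
Percent of genes (y axis) in each bin of 0.1 in log2 fold change (x axis), for all 14919 tested genes and for the 33 members. Of the members, 30 of 33 were below 0.2 in size, against 73.8% of all genes, which were not matched to the members for abundance.

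Levels can be compared between genes per length, and the deposited FPKM (fragments scaled for transcript length and library size) were used for that. In the wild type eye the members ranged from 0.797 to 178 FPKM. The lectin chaperone calreticulin (Calr) was highest at 178 ± 20.1 FPKM (SD, n = 3), followed by Hspa5 at 122 ± 19.4, Atf4 at 121 ± 6.27 and Hsp90b1 at 103 ± 26.5 FPKM. The wild type ranges of these last 3 overlapped, and their order was not tested. Within each wild type library Hspa5 was above Hsp90b1 (105, 120 and 143 against 85.3, 90.7 and 134 FPKM). Derl3, a degradation factor of secretory cells, was the lowest, with 3 to 15 fragments per library, and was not tested. The 3 sensors were low: Atf6 stood at 10.8 ± 2.16, Eif2ak3 at 9.15 ± 0.461 and Ern1 at 4.68 ± 0.533 FPKM in the wild type.

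**Figure D3:**
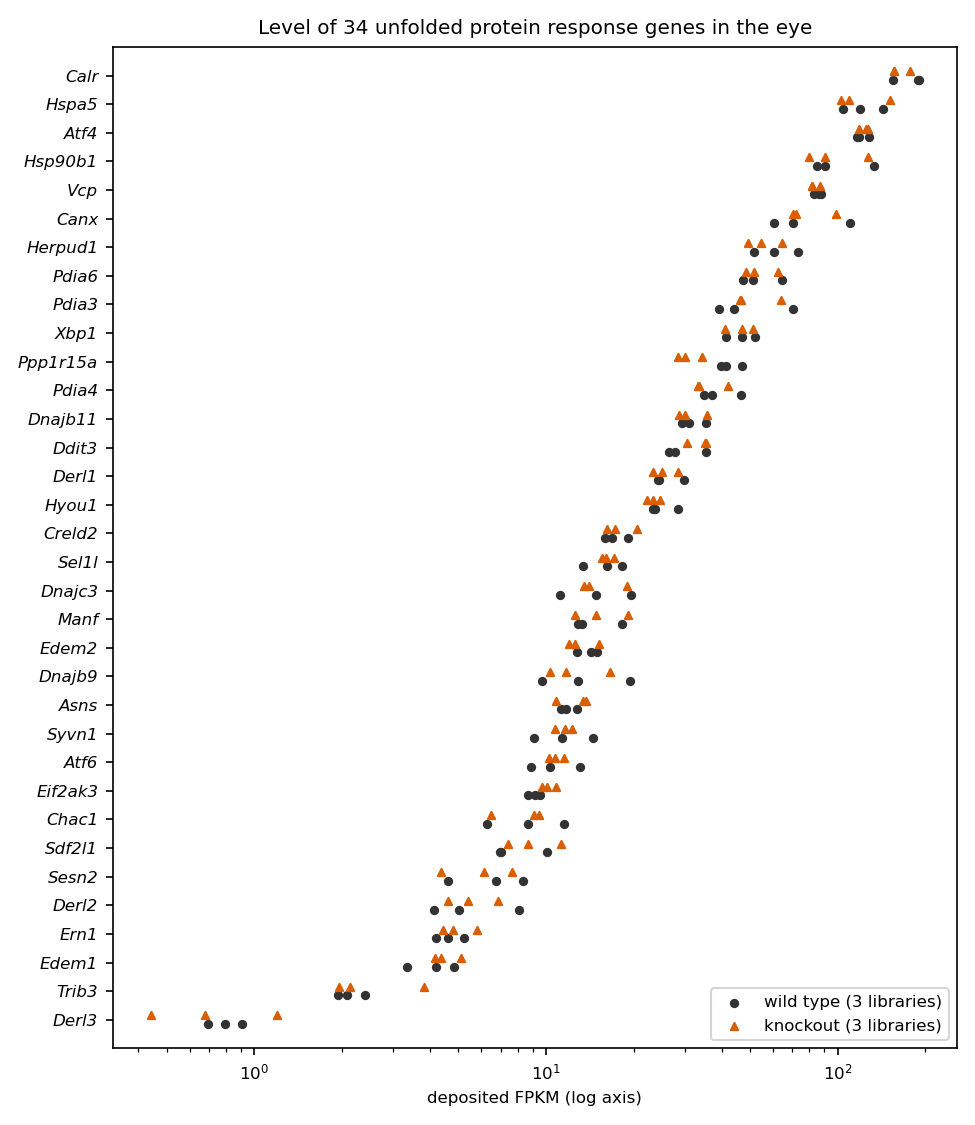
Deposited FPKM (x axis, log scale) of the 34 genes in each of the 3 wild type libraries (black dots) and 3 knockout libraries (orange triangles), ordered by the wild type mean. The groups overlap for nearly all genes, from Derl3 at 0.797 FPKM to Calr at 178 FPKM in the wild type; Ppp1r15a stands out with all knockout values below the wild type.

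The sensors came first in the pathway and none was called. Eif2ak3, which encodes PERK, was at 44.6, 46.3 and 45.9 CPM in the wild type and 49.3, 49.9 and 53.0 CPM in the knockout. Its groups did not overlap, but the log2 fold change of 0.16 ± 0.07 (SE) did not pass (adjusted p = 0.209). Ern1, which encodes IRE1, was at 17.9, 18.5 and 20.4 CPM against 20.3, 21.2 and 18.1 CPM, with overlapping groups (0.07 ± 0.10, adjusted p = 0.780). Atf6 was at 110, 113 and 110 CPM in the wild type and 113, 111 and 107 CPM in the knockout (−0.01 ± 0.06, adjusted p = 0.961).

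The transcription factor of each branch was close to its wild type level. Atf4 was at 193, 198 and 201 CPM in the wild type and 193, 193 and 212 CPM in the knockout, with a log2 fold change of 0.02 ± 0.06 (95% interval −0.11 to 0.15). Xbp1 was at 78.8, 82.8 and 91.2 CPM against 80.2, 87.0 and 89.3 CPM (0.03 ± 0.07, interval −0.12 to 0.18). Both pairs of groups overlapped. The deposited isoform table holds 1 Xbp1 transcript (NM_013842), so spliced and unspliced Xbp1 were not told apart here.

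Ddit3 encodes CHOP, the factor that is known to link long-lasting PERK signalling to cell death. It was at 22.2, 20.8 and 20.0 CPM in the wild type and 24.8, 22.2 and 23.3 CPM in the knockout. Every knockout library was above every wild type library, the closest values being 22.2 CPM in both groups, and the log2 fold change of 0.15 ± 0.09 did not pass (adjusted p = 0.397). Together with Eif2ak3 and Edem1, Ddit3 was 1 of 3 members (9.09%) with all knockout values above the wild type, and 11.6% of all tested genes had this pattern. Ppp1r15a was the only member (3.03%) with the opposite pattern, which 11.7% of all tested genes had.

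The 5 targets of PERK and ATF4 held the call. Ppp1r15a encodes GADD34, the subunit that brings protein phosphatase 1 to eIF2alpha and so ends the block on translation. It was at 99.1, 91.7 and 110 CPM in the wild type and at 63.5, 73.4 and 64.8 CPM in the knockout. All 3 knockout libraries lay below all 3 wild type libraries, and the group means were 100.4 ± 9.43 and 67.2 ± 5.37 CPM (SD, n = 3 each). The knockout was at 66.9% of the wild type, a log2 fold change of −0.58 ± 0.08 (95% interval −0.75 to −0.41, edgeR adjusted p = 0.000183).

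The fall of Ppp1r15a rested on 426 to 2132 fragments per library. It passed without any 1 of the 6 libraries (log2 fold change −0.64 to −0.51, adjusted p = 0.000122 to 0.00236). In the authors' deposited table it was the only member with a q under 0.05 (q = 0.00162; 42.8 FPKM in the wild type and 30.8 in the knockout), and 4.44% of all genes in that table had such a q. With sex as a covariate the value was −0.45 and did not pass (adjusted p = 0.0874), a setting in which 1.58% of all tested genes were called. Knockout replicate 2, the knockout library with Xist like the wild type, had the highest knockout level, 73.4 CPM. With limma on log2(FPKM + 1) the value was −0.46 and did not pass either (adjusted p = 0.605).

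Ppp1r15a lies on chromosome 7 (52778288 to 52781638 in mm9, the build of the deposited files), and its 1 transcript in the files is NM_008654. Its promoter is shown because it is the only member that was called lower in the main test. The 250 bases before the start site are given, on GRCm38.p6. No exact ERSE, ERSE-II, UPRE or CARE was found in the window searched. A cyclic AMP response element (CRE, TGACGTCA, in capitals) was found from 12 to 5 bases before the start site. It was searched after this sequence had been read, shares its first 6 letters with UPRE, and was in 1.79% of all promoters.
Ppp1r15a, chr7:45526269-45526518, - strand: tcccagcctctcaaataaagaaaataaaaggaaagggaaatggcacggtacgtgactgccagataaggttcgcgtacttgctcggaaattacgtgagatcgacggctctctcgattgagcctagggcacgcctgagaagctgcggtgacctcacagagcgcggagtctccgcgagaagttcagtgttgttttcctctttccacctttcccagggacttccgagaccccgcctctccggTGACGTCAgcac

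The other members of this group are known to rise with ATF4 in stressed cells. Asns, asparagine synthetase, was at 23.8, 24.5 and 21.1 CPM in the wild type and from 22.4 to 27.7 CPM in the knockout, with overlapping groups (0.11 ± 0.10, adjusted p = 0.641). Trib3, a pseudokinase that restrains ATF4 and CHOP, was at 3.35, 2.68 and 3.81 CPM against 3.04, 5.17 and 3.68 CPM. Its value of 0.25 ± 0.23 (interval −0.23 to 0.73) came from 26 to 72 fragments per library, and knockout replicate 2 alone was above the wild type range.

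Chac1, which degrades glutathione, was at 11.1, 9.87 and 9.95 CPM in the wild type and 12.4, 8.96 and 9.15 CPM in the knockout (−0.03 ± 0.14). Sesn2, sestrin 2, an inhibitor of mTORC1, was at 12.8, 10.1 and 11.8 CPM against 11.5, 12.6 and 10.1 CPM (−0.05 ± 0.13). Both sets of groups overlapped. The 4 targets other than Ppp1r15a thus had values on either side of 0 and none passed (adjusted p = 0.620 to 0.950).

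**Figure D4:**
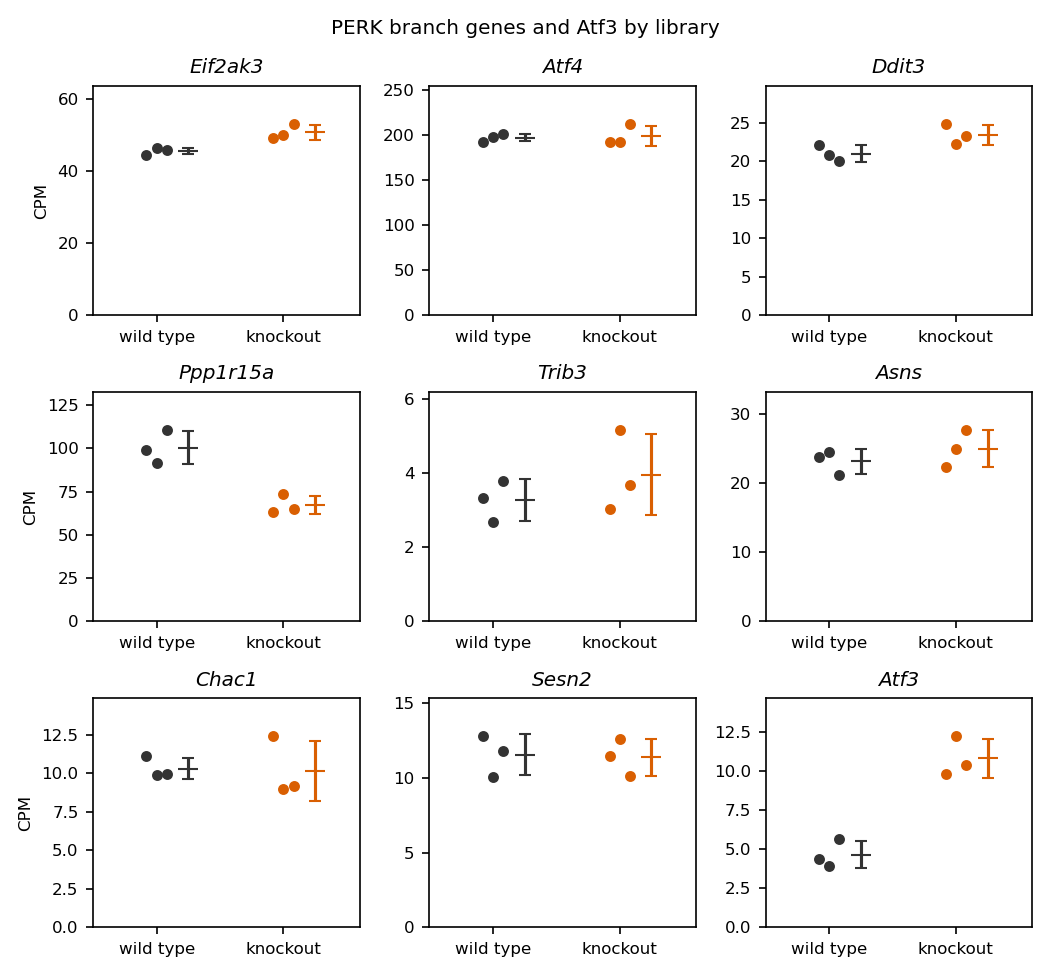
CPM (y axis, from 0) of PERK (Eif2ak3), Atf4, Ddit3, 5 of their targets and Atf3 in each library (dots), with the mean and SD of 3 libraries beside them. Ppp1r15a is lower in all knockout libraries (63.5 to 73.4 CPM against 91.7 to 110), Atf3 is higher, and most other panels overlap.

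The 14 chaperone and folding genes included 7 of the 9 members with the ERSE, and none of the 14 was called. Their log2 fold changes ran from −0.17 to 0.20, with a median of −0.03, 4 above 0 and 10 below. Summed over the 14 genes, the level was 2470, 2615 and 2630 CPM in the wild type and 2409, 2395 and 2655 CPM in the knockout. The groups overlapped, with knockout replicate 3 the highest of the 6 libraries and the other knockout libraries the lowest.

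Hspa5 encodes BiP, the chaperone that holds the sensors inactive and the usual readout of ER stress. It was at 357, 381 and 381 CPM in the wild type and 333, 344 and 409 CPM in the knockout. Knockout replicates 1 and 2 were below the wild type range and replicate 3 above it, and the log2 fold change was −0.04 ± 0.08 (95% interval −0.21 to 0.12, adjusted p = 0.830). The largest negative value among the 14 was that of Pdia4, a disulfide isomerase, at 116, 124 and 135 CPM against 109, 104 and 117 CPM (−0.17 ± 0.07, adjusted p = 0.174, unadjusted p = 0.0244). The largest positive value among the 14 was that of Sdf2l1, a partner of BiP, at 6.23, 6.84 and 6.14 CPM against 6.32, 6.37 and 8.97 CPM (0.20 ± 0.16). Only knockout replicate 3 was above the wild type range there.

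Among the remaining chaperones, Calr was at 407, 422 and 446 CPM in the wild type and 397, 367 and 418 CPM in the knockout (−0.11 ± 0.07, adjusted p = 0.436), and Hyou1, a nucleotide exchange factor of BiP, at 116, 108 and 113 against 103, 94.9 and 109 CPM (−0.13 ± 0.06, adjusted p = 0.313). Hsp90b1, which encodes GRP94, had a log2 fold change of −0.07 ± 0.07. The membrane lectin calnexin (Canx) was at −0.01 ± 0.06 on the same scale. The disulfide isomerases Pdia3 and Pdia6 were at 0.06 ± 0.06 and −0.01 ± 0.06.

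The J-domain partners of BiP, Dnajb9, Dnajb11 and Dnajc3, had log2 fold changes of −0.07 ± 0.10, −0.09 ± 0.06 and 0.02 ± 0.06. Creld2 and Manf, known as small secreted proteins that ER stress induces, had log2 fold changes of −0.01 ± 0.10 and 0.05 ± 0.10. Manf was highest in knockout replicate 3 (45.1 CPM) and next highest in wild type replicate 3 (42.4 CPM), with 34.7 to 36.4 CPM in the other libraries. Of the 9 members with an ERSE in the promoter, 8 were tested, none was called, and their values ran from −0.11 to 0.11.

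**Figure D5:**
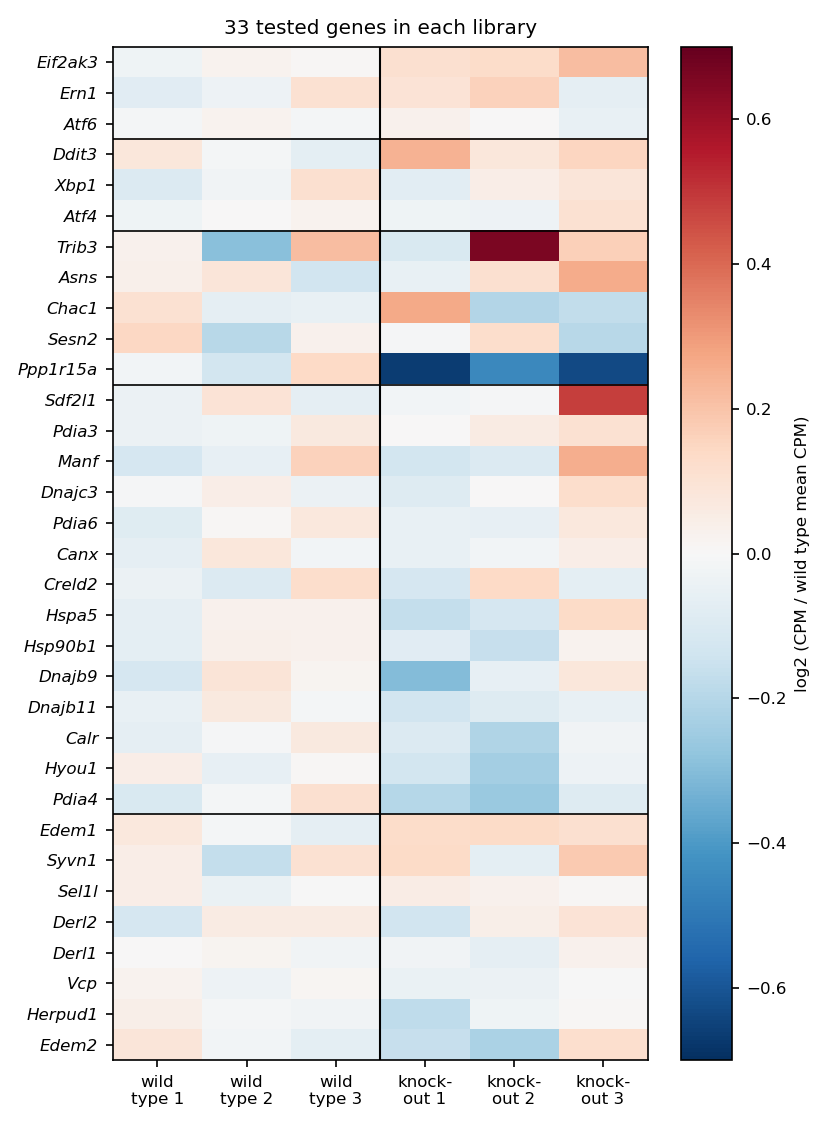
Log2 of CPM over the wild type mean CPM (colour, red above and blue below) for the 33 tested genes (rows, in blocks by role) in each of the 6 libraries (columns). Ppp1r15a is the only row that is blue in all 3 knockout libraries at more than 0.4 below the wild type mean, and several chaperones are red in knockout replicate 3.

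ER-associated degradation takes misfolded proteins from the ER to the proteasome. Its 9 genes had 8 tested members, none called, with log2 fold changes from −0.07 to 0.12 and a median of 0.00056. Edem1, a lectin that directs glycoproteins to degradation, was at 32.0, 30.2 and 29.1 CPM in the wild type and 33.2, 33.4 and 32.9 CPM in the knockout. The groups did not overlap, and the value of 0.12 ± 0.08 did not pass (adjusted p = 0.467). Its relative Edem2 was at −0.07 ± 0.09 on the same scale.

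The ligase Syvn1 (HRD1) had a log2 fold change of 0.11 ± 0.09, and its partner Sel1l one of 0.03 ± 0.06. Herpud1, which helps assemble that complex and is strongly induced in ER stress, was at 99.7, 96.0 and 95.4 CPM in the wild type and 85.9, 94.9 and 97.7 CPM in the knockout, with overlapping groups (−0.07 ± 0.06). The channel-like factors Derl1 and Derl2 had log2 fold changes of −0.02 ± 0.06 and 0.02 ± 0.09. Vcp, the ATPase that pulls substrates out of the membrane, was the most abundant of these genes at 331, 317 and 329 CPM against 315, 317 and 325 CPM (−0.03 ± 0.06, interval −0.16 to 0.09). Derl3 had 15, 6 and 9 wild type fragments and 10, 3 and 5 knockout fragments, too few for a comparison.

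The 34 genes had 41 isoforms in the files, and 5 genes (Canx, Dnajb11, Hspa5, Sel1l and Syvn1) had more than 1. Of 37 isoforms tested, 1 was called, the single transcript of Ppp1r15a (−0.58 ± 0.09, edgeR adjusted p = 0.0452), against 1.57% of all 16546 isoforms tested. That call did not hold without any 1 of the libraries, with 0 member isoforms called each time. In Syvn1 the longer transcript (NM_028769) made up 60.2% of the summed wild type FPKM, and the shorter 39.8%, against 48.0% in the knockout. Neither Syvn1 isoform passed (0.46 ± 0.47 and −0.18 ± 0.25 for the shorter and the longer). In Hspa5 the shares were 58.5% and 59.3% for NM_001163434 in wild type and knockout, and its log2 fold change was −0.03 ± 0.19.

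Other genes of the same pathways were read from 7 lists of 177 genes, of which 170 were tested. Of the 170, 4 were called higher and 4 lower, where 2.89% and 3.35% of all tested genes were, and the median log2 fold change was near 0. None was called among 15 sensor relatives and processing enzymes, 33 further degradation genes, and 26 genes of the translocon, signal peptidase and oligosaccharyltransferase. Of 31 further ER chaperones and oxidoreductases 1 was called, Txndc11, a thioredoxin-domain gene, which fell from 32.0 ± 2.42 to 23.8 ± 1.39 CPM (SD, n = 3 each; −0.43 ± 0.09, adjusted p = 0.00632). Txndc11 passed without any 1 library, and not with sex as a covariate (−0.54, adjusted p = 0.101).

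Of 37 further ATF4 and integrated stress response targets, 1 rose and 3 fell, with a median of 0.03. The riser was Atf3, a stress-induced transcription factor that is also induced through other pathways, at 4.37, 3.95 and 5.65 CPM in the wild type and 9.83, 12.2 and 10.4 CPM in the knockout. Its groups did not overlap, and it rose by 1.24 ± 0.16 on the log2 scale (adjusted p = 0.000127), also without any 1 library. It also passed with sex as a covariate (adjusted p = 0.00700). The difference there rests on the knockout library with the highest level, at 12.2 CPM. The amino acid transporter gene Slc7a5 fell (−0.32 ± 0.07, adjusted p = 0.0110), but not without knockout replicate 2 (adjusted p = 0.0762). Vldlr, a lipoprotein receptor gene, fell (−0.24 ± 0.06, adjusted p = 0.0233), and with 1 library left out it passed only without wild type replicate 1 or knockout replicate 3 (otherwise adjusted p = 0.0616 to 0.0952). Ddit4, an inhibitor of mTORC1, fell (−0.30 ± 0.08, adjusted p = 0.0383), and passed only without knockout replicate 1 (otherwise 0.0561 to 0.172).

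Among 14 eIF2 kinases, phosphatase and exchange factor genes 1 rose. It was Eif2ak2, which encodes PKR, an eIF2 kinase that double-stranded RNA activates and interferon induces (20.3 ± 1.06 to 27.0 ± 3.03 CPM, 0.42 ± 0.10, adjusted p = 0.0166). The call was lost when wild type replicate 1 (adjusted p = 0.0594) or knockout replicate 1 (0.10) was left out. Of 14 ER stress cell death genes 2 rose: Txnip, a thioredoxin inhibitor (0.28 ± 0.07, adjusted p = 0.0180), and Bbc3, which encodes the BH3-only protein PUMA (2.13 ± 0.589 to 4.33 ± 1.43 CPM, 0.94 ± 0.26, adjusted p = 0.0431). Txnip passed only without wild type replicate 1 or knockout replicate 2 (otherwise 0.0583 to 0.0897), and Bbc3 only without wild type replicate 1 or knockout replicate 3 (otherwise 0.0708 to 0.251). DESeq2 did not call Bbc3 (adjusted p = 0.0723) or Ddit4 (0.0635). Of these 8 genes outside the 34, Atf3 alone passed with sex as a covariate, and limma on log2(FPKM + 1) called none of them (Atf3 adjusted p = 0.0837).

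Markers of several cell types moved between the groups in which Ppp1r15a fell. Beside the rod markers (median log2 fold change −0.58), 7 of 8 cone markers were called lower and 1 higher, with summed levels of 797 to 822 CPM in the wild type and 731 to 777 CPM in the knockout. Of 10 microglia and macrophage markers 8 were called higher (194 to 215 against 290 to 336 CPM), and of 9 Mueller glia markers 3 were called higher and 1 lower (5098 to 5183 against 5062 to 5303 CPM). All 4 tested blood markers were called lower (187 to 258 against 54.8 to 94.9 CPM). With sex as a covariate the rod genes Nrl and Gnat1 (adjusted p = 6.1e-05 and 0.00378) and the microglial gene Ctss (0.00158) still passed, and the counts of marker calls were not recomputed in that setting. The glial stress gene Gfap, 1 of the 3 Mueller glia calls, was lost with sex (adjusted p = 0.318), by DESeq2 (0.127) and without knockout replicate 1 (0.0514). Limma on log2(FPKM + 1) called none of these 4 genes. The part of these cell types in the fall of Ppp1r15a was not tested. Lens fibre markers, at 67924 to 81705 against 69411 to 73451 CPM the most abundant of these lists, had none of 8 called. In the retinal pigment epithelium list 1 of 6 was called higher and 1 lower, in the corneal list 2 of 7 higher, in the extraocular muscle list 1 of 7 higher, in the plasma cell list 1 of 4 higher, and in the fibroblast list none of 7. Of the lacrimal and Harderian gland list 1 gene could be tested and was not called, and Lcn3 was at 0 fragments.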

How the data were processed

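The submitters' processing notes name mm9 as the build, with TopHat2 2.0.12 and the Cufflinks and Cuffdiff programs at 2.2.1. The authors deposited an estimated count of fragments, unscaled, and an FPKM value for each gene, isoform and library. Per the file headers, transcript lengths and a gene comparison with group FPKM, a p-value and a q-value were also deposited. Strand and annotation release are not given in the sources used here. Libraries were grouped by genotype, and their numbers only name them.

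The estimated counts were rounded (98.5% of gene values and 71.7% of isoform values were whole within 1e-06). Features the software failed to estimate (7 genes, 12 isoforms) were left out. The test was edgeR 4.0.16 (R 4.3.3): TMM, filterByExpr (minimum count 10, total 15), quasi-likelihood F test between the genotypes, no covariate, Benjamini-Hochberg over all 14919 genes, or over 16546 isoforms with a mean FPKM of at least 1. The method was also run on counts simulated from its own fitted spread, without sex, which does not show how it performs on these libraries. SE is the log2 fold change over the square root of F. Alternatives used DESeq2 1.42.0, limma 3.58.1, other scalings, no filter, a replicate block, sex, and leaving out libraries. Total fragments per library limit precision and intervals cover the fitted spread. All members could be named. From each other list the called genes, up to 4, were named. The members and lists were chosen with earlier results of these data known.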

Additional observations from a re-analysis of the deposited data

How the results depend on the processing

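No member was called higher under any of the 15 alternatives, and none of the 480 values of the other 32 members under them passed. In 52 of those values, from 16 members, the sign differed from the main one. Ppp1r15a stayed below 0 (−0.64 to −0.45), and it was the 1 member called lower, except under 4 settings. These were limma on log2(FPKM + 1) (adjusted p = 0.605), limma on log2(FPKM + 0.1) (0.622), sex as a covariate (0.0874) and the Xist-positive libraries only. That last setting was chosen after the data were examined and sets knockout replicate 2 alone against the wild type. The cause was not tested. The median of the members was −0.04 to 0.02 with 1 library left out.

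All genes called higher and lower, 431 and 500, numbered 12 and 4 under each limma setting, 91 and 144 with sex, 96 and 151 in the Xist-positive libraries, and 270 to 432 and 316 to 475 with 1 library left out. The 4 higher and 4 lower genes of the other lists became 0 and 0 under limma, 1 and 0 with sex or in the Xist-positive libraries, and 1 to 3 and 2 to 4 with 1 library left out. The isoform call (1) became 0 with a mean FPKM of at least 0.1, with sex, with the replicate block, and without each library.

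With the replicate number as a block, 558 genes were higher and 611 lower, and Ppp1r15a was at −0.58 (adjusted p = 0.000147). The numbers share no stated source, and deviations of same-numbered libraries correlated at 0.132, 0.0657 and −0.0489.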
